A study of Mus musculus with 6 samples.

Results

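The insulin-like growth factor (IGF) axis was described through 10 genes, which were found by their symbols among the 55487 genes of the deposited table: the ligands Igf1 and Igf2, the receptors Igf1r and Igf2r, and the binding protein genes Igfbp2, Igfbp3, Igfbp4, Igfbp5, Igfbp6 and Igfbp7. RNA was sequenced from dental epithelium of the first mandibular molar at PN2.5 (postnatal day 2.5) in 6 libraries. The 3 control libraries came from Wnt10aflox/flox mice and the 3 cKO libraries from K14-Cre;Wnt10aflox/flox mice, so that both groups carried the floxed Wnt10a alleles and only the cKO group carried Cre, which the keratin 14 promoter drives in epithelial cells. Each library pooled the dental epithelium of several molars, and the sources differ on how many. The sources call the libraries biological replicates and do not say how many animals a pool held. The p-values therefore set a difference between the groups against the spread between these pools.

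IGF1 and IGF2 are secreted growth factors that act through the receptor tyrosine kinase IGF1R and its phosphatidylinositol 3-kinase, AKT and MAP kinase branches. IGF2R, the cation-independent mannose 6-phosphate receptor, carries IGF2 to lysosomes and does not signal as a kinase, and IGF binding proteins (IGFBPs) hold the ligands outside the cell and set how much can reach IGF1R. The axis is known for the control of growth in embryos and newborns, and Igf2 and Igf2r are imprinted genes in the mouse.

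The values are TPM, a level per transcript length that is scaled to the same total in every library, so levels may be compared between genes. TPM keep no sequencing depth, and no counting error can be given. Wnt10a itself was 51.2 to 57.9 TPM in control and 21.8 to 32.2 TPM in cKO. The epithelial keratin gene Krt14 was 2190.44 to 2772.55 TPM in control and 2218.53 to 2746.73 TPM in cKO, and the type I collagen gene Col1a1, a mesenchymal marker, was 1794.68 to 3126.60 TPM and 2172.22 to 2444.26 TPM, so the pools also held transcripts typical of mesenchyme. Krt14 is 1 of the 12 dental epithelium markers described below, and its level does not stand for the list. In bulk RNA, fewer cells of a type and less RNA per cell cannot be told apart. cKO replicate 2 stood apart in its share of the enamel matrix gene Amelx, 8.65% of all TPM against 16.5% to 20.6% in the other libraries. Summed over genes annotated as rRNA, the level was 1363 to 3283 TPM in control and 8400 to 16291 TPM in cKO, a difference between the groups whose part in the results below was not tested.

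The binding protein genes Igfbp2 and Igfbp5 were the most abundant members, and Igfbp6 was the least abundant. In control, Igfbp2 averaged 457 ± 118 TPM (SD, n = 3) and Igfbp5 278 ± 90.7 TPM (SD, n = 3), levels above 98.3% and 97.4% of the tested genes. Igfbp4, Igf2, Igfbp3 and Igfbp7 followed with control means of 86.8, 73.5, 68.4 and 66.0 TPM. Igf1r had a control mean of 25.4 TPM, Igf2r of 12.5 TPM, Igf1 of 11.0 TPM and Igfbp6 of 1.43 TPM. Among neighbours in this order, the ranges of Igfbp2 and Igfbp5 overlapped across control libraries, but Igfbp2 was the higher gene in 3 of 3 libraries. Each neighbouring pair from Igfbp4 to Igfbp7, and Igf2r and Igf1, overlapped and changed order between libraries. The steps from Igfbp5 to Igfbp4, from Igfbp7 to Igf1r, from Igf1r to Igf2r and from Igf1 to Igfbp6 had no overlap. In cKO the order was Igfbp2, Igfbp5, Igf2, Igfbp4, Igfbp7, Igfbp3, Igf1r, Igf1, Igf2r and Igfbp6, and the ranges of Igfbp5 and Igf2 overlapped although Igfbp5 was the higher gene in 3 of 3 cKO libraries. Igf2 and Igfbp4, Igfbp7 and Igfbp3, and Igf1 and Igf2r overlapped and changed order between cKO libraries.

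**Figure D1:**
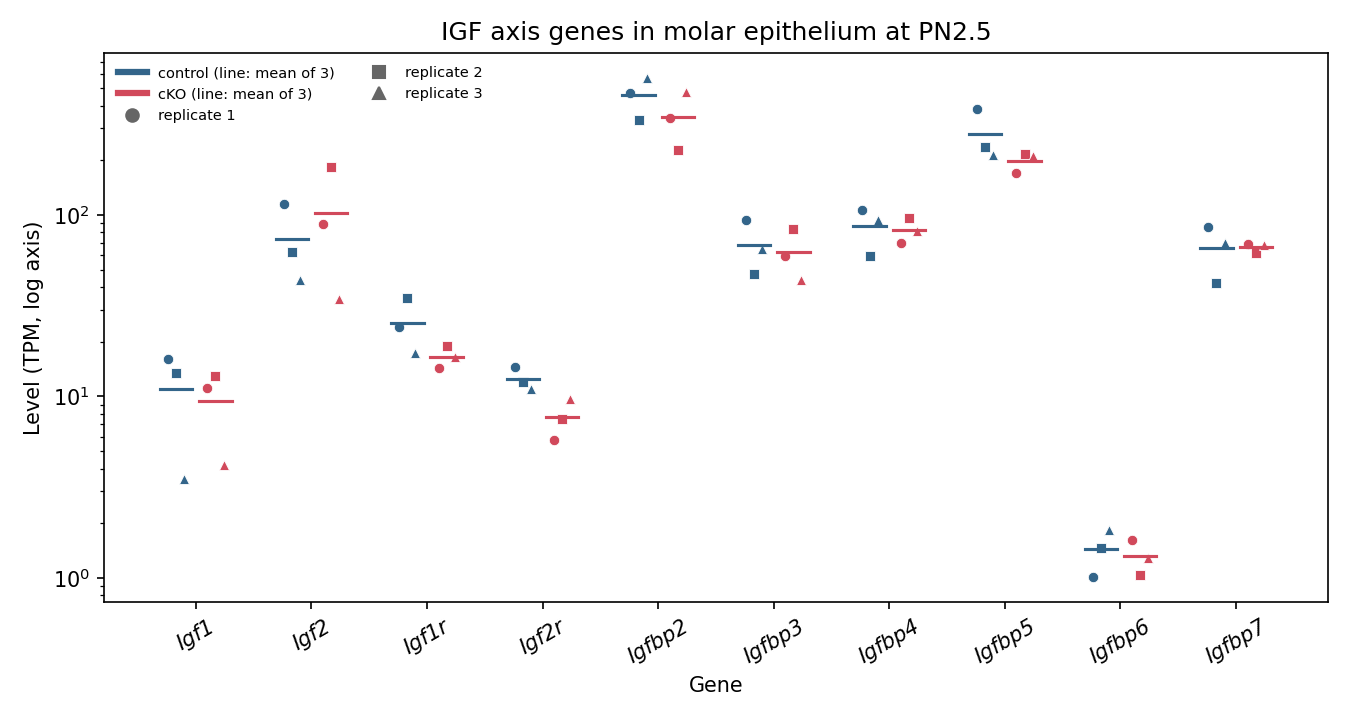
Level of each IGF axis gene in each library, in TPM on a log axis, with control in blue, cKO in red, a marker shape for each replicate number and a line at the mean of 3 libraries. Igfbp2 and Igfbp5 are at the top, Igfbp6 is near 1 TPM, and Igf2r is the gene whose groups do not overlap.

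To find out whether the axis differed after epithelial deletion of Wnt10a, the 13719 genes whose mean over the libraries reached 1 TPM were compared with limma. Fold changes are on the log2(TPM + 1) scale, on which changes of weakly expressed genes come out too small. All 10 members passed this filter. With limma, 0 of the 10 had a Benjamini-Hochberg adjusted p below 0.05, against 0.0146% of the tested genes, and the adjusted p was 1.00 for each of them. At an unadjusted p below 0.05 there was 1 member, against 4.02% of the tested genes: Igf2r was lower in cKO (2.47% of the tested genes were) and 0 members were higher (1.55% were). Igf2r was also the 1 member whose groups did not overlap, against 9.64% of the tested genes, or 6.13% for genes lower in cKO. Of the 10 log2 fold changes, 8 were negative, against 60.3% over the tested genes, and their median was -0.12 against -0.07. Of the tested genes at an unadjusted p below 0.05, 61.4% were lower in cKO, but this share depended on the scaling: it was 50.2% with quantile normalization, 48.9% with median-ratio scaling and 86.2% with rescaling to protein-coding genes other than Amelx and Ambn. Igf2r was lower in cKO under all 3, with log2 fold changes of -0.57, -0.59 and -0.72.

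**Figure D2:**
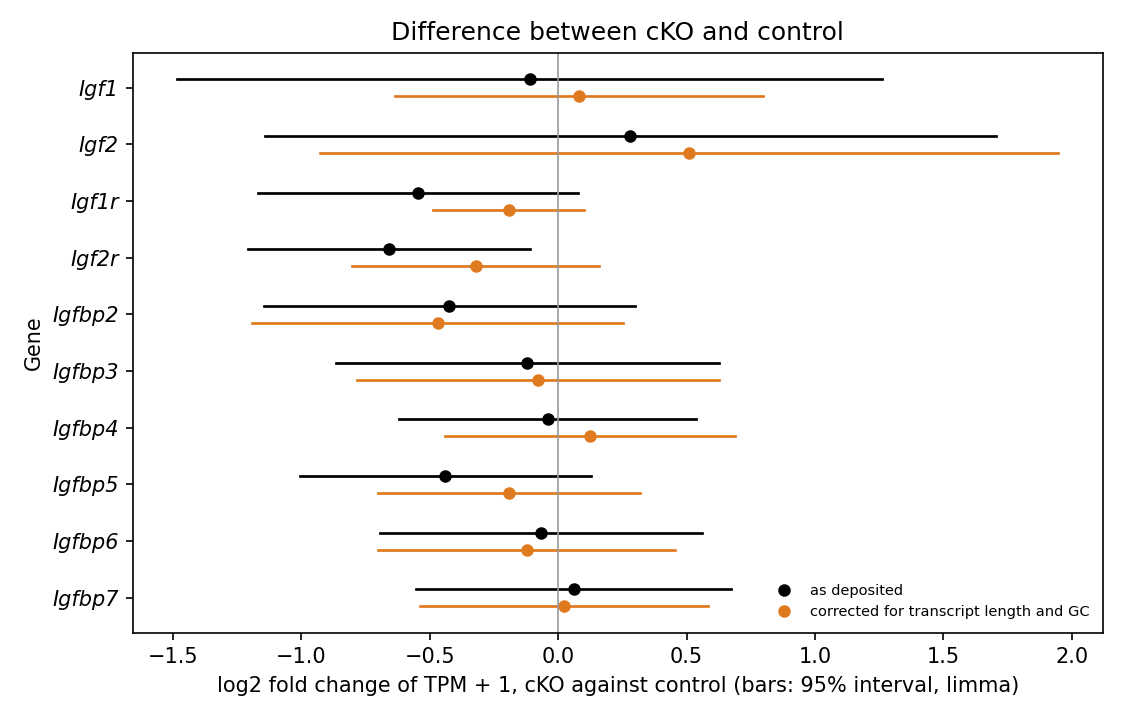
Log2 fold change of TPM + 1 in cKO against control for each member, with the 95% interval from limma, from the values as deposited (black) and with a correction for the length and GC content of transcripts (orange). Only the uncorrected interval of Igf2r, from -1.21 to -0.11, leaves out 0.

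Igf2r (GRCm38 chr17:12682406-12769664, reverse strand, 48 exons in its longest transcript) encodes the receptor that clears IGF2. Control replicates 1, 2 and 3 had 14.5, 12.1 and 10.9 TPM, against 5.73, 7.51 and 9.73 TPM for the cKO replicates in the same order. All 3 cKO values lay below all 3 control values, and the highest cKO library lay close to the lowest control library. On average, cKO libraries had 61.3% of the control level, with a log2 fold change of -0.66 (standard error 0.23, 95% interval -1.21 to -0.11) and an unadjusted limma p of 0.0252. The two-sided exact permutation test gave p = 0.1, the smallest p that 3 against 3 libraries allow. The unadjusted p from limma was 0.101 without control replicate 1, 0.0557 without control replicate 2, 0.0879 without cKO replicate 1 and 0.0626 without cKO replicate 2, with log2 fold changes of -0.55, -0.68, -0.49 and -0.66. Without control replicate 3 it was 0.0325 and without cKO replicate 3 it was 0.0143, with log2 fold changes of -0.74 and -0.82. Under the scalings named above, the unadjusted limma p was 0.0613 with quantile normalization, 0.0453 with median-ratio scaling and 0.0145 with rescaling.

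Igf1r (GRCm38 chr7:67952827-68233668, forward strand, 21 exons) encodes the signalling receptor of both ligands. It was measured at 24.2, 34.7 and 17.4 TPM in control, replicates 1 to 3, against 14.4, 18.8 and 16.4 TPM in cKO. The groups overlapped, since control replicate 3 lay below cKO replicate 2. The log2 fold change was -0.55 (standard error 0.26, 95% interval -1.17 to 0.08) with an unadjusted limma p of 0.0773. Without control replicate 3 it was -0.78 with an unadjusted limma p of 0.0151, while the median over all tested genes moved from -0.07 to -0.18, and without control replicate 2, the library with the highest level, it was -0.30 with an unadjusted limma p of 0.230. The ratio of Igf1r to Igf2r was 1.67, 2.88 and 1.59 in control and 2.51, 2.51 and 1.69 in cKO, so the groups overlapped in this ratio (two-sided exact permutation test, p = 0.8).

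The receptor genes have the longest transcripts of the 10 members, 11409 bases for Igf1r and 8887 bases for Igf2r in the GENCODE annotation of GRCm38. Long transcripts were lower in cKO in general: the median log2 fold change was -0.32 over the 678 tested protein-coding genes with a longest transcript of at least 8000 bases and 0.10 over the 2507 below 2000 bases. When each library was adjusted for these lengths and for GC content, a step called the length and GC correction here, the log2 fold change was -0.32 (standard error 0.20, 95% interval -0.80 to 0.16) for Igf2r, with an unadjusted limma p of 0.157. For Igf1r it was -0.19 (standard error 0.12, 95% interval -0.49 to 0.10), with an unadjusted limma p of 0.164. With this correction, 0 of the 10 members had an unadjusted p below 0.05, against 4.57% of the 13707 genes corrected. Airn, the antisense RNA of the Igf2r locus, shares no annotated exon base with Igf2r. It was 11.2, 17.4 and 8.62 TPM in control against 13.0, 17.6 and 8.78 TPM in cKO, with a log2 fold change of 0.08 (standard error 0.32) and an unadjusted limma p of 0.817. The sources do not state whether reads were counted by strand, so reads from the region where both genes lie cannot be told apart.

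**Figure D3:**
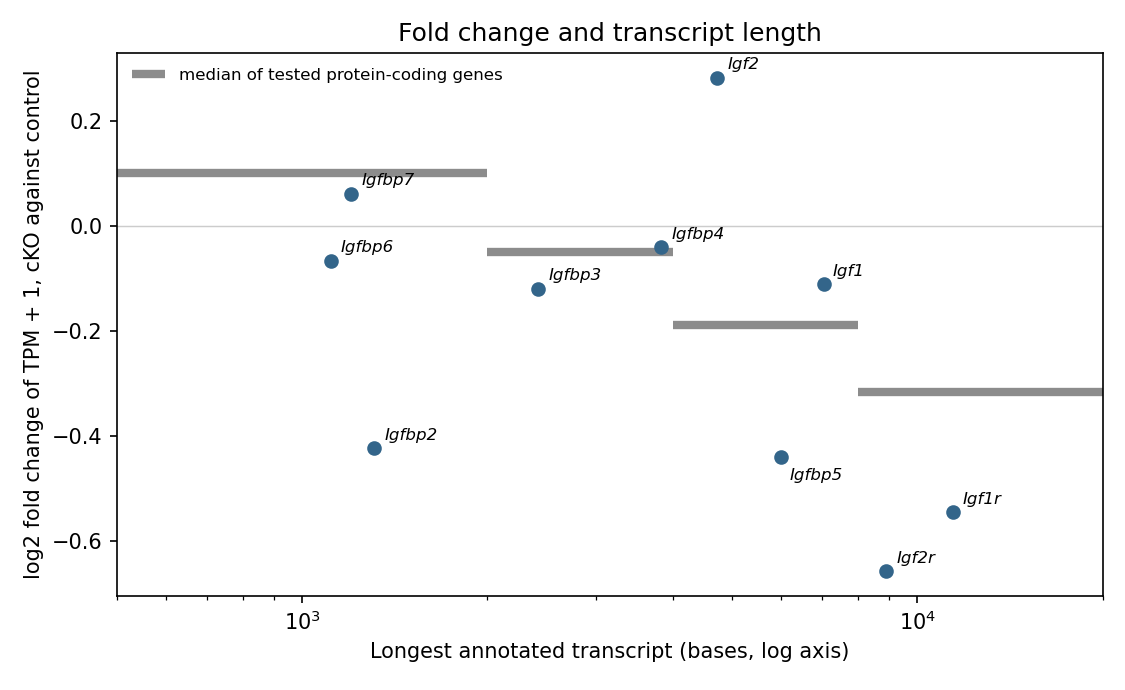
Log2 fold change of TPM + 1 in cKO against control by the longest annotated transcript in bases (log axis) for the 10 members (points), with the median of tested protein-coding genes in 4 length classes (grey bars, the outer classes drawn to the edge of the axis). Igf1r and Igf2r lie at the long end, where the median of the class is -0.32, and below that median.

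Wnt ligands can act through TCF and LEF transcription factors, which bind DNA at a short core sequence. Promoter windows of the 250 bases before a RefSeq transcript start were therefore searched on both strands for CTTTGA and CTTTGT, 2 forms of that core. All 10 members had at least 1 window, and 3 of their 14 windows held a match, against 27.6% of all 32851 windows. Igf1r, with 1 match, Igf2r, with 0, and the first window of Igf2, with 1, are shown to place the receptors beside the ligand that both bind. Capitals mark the match, and the sequences run 5′ to 3′ on the strand of the gene.
Igf1r: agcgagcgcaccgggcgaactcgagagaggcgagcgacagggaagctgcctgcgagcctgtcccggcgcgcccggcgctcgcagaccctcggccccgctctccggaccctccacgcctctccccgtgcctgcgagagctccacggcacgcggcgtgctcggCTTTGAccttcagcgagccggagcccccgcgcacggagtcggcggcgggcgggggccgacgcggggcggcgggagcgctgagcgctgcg
Igf2r: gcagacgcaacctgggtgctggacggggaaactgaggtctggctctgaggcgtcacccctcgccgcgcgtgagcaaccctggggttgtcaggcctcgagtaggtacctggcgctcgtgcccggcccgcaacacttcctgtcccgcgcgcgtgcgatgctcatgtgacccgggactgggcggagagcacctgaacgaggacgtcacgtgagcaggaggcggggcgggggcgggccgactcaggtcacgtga
Igf2: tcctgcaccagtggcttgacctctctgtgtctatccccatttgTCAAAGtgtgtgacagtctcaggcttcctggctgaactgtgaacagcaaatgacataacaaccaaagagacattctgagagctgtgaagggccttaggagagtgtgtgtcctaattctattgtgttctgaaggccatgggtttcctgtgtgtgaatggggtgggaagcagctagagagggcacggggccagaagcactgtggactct

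In GRCm38.p6 these windows are chr7:67952007-67952256 on the forward strand for Igf1r, chr17:12769707-12769956 on the reverse strand for Igf2r and chr7:142666817-142667066 on the reverse strand for Igf2, and none of them covers an annotated exon. The match of Igf1r lies 89 to 84 bases before the transcript start and reads CTTTGA on the strand of the gene. That of Igf2 lies 207 to 202 bases before the start and reads CTTTGA on the opposite strand. The remaining window with a match belongs to Igf1 and holds 2 matches. GC content was 77.6% in the window of Igf1r, 69.2% in that of Igf2r and 50.8% in that of Igf2, against a median of 52.4% over all windows, and the windows held 42, 27 and 1 CpG.

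The ligand genes varied more between libraries of a group than the receptor genes. Igf2 (chr7:142650766-142666816, reverse strand), a major growth factor of the fetus, was 114, 62.5 and 43.7 TPM in control, replicates 1 to 3, against 89.6, 183 and 34.4 TPM in cKO. The highest and the lowest value were both in cKO, and the control values lay between them. The log2 fold change was 0.28 (standard error 0.61, 95% interval -1.14 to 1.71), with an unadjusted limma p of 0.656. It was -0.28 without cKO replicate 2, the library with the low share of Amelx, with an unadjusted limma p of 0.62, and -0.03 without control replicate 3. Gm49394, annotated on the same strand with 3596 shared exon bases, was listed at 0 in every library, and how reads were divided between it and Igf2 is uncertain.

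Igf1 (chr10:87858265-87937042, forward strand), the ligand that growth hormone raises in postnatal tissues, was 16.0, 13.5 and 3.51 TPM in control, replicates 1 to 3, against 11.2, 13.0 and 4.18 TPM in cKO. Replicate 3 was the low library of both groups. The log2 fold change was -0.11 (standard error 0.58, 95% interval -1.48 to 1.26), with an unadjusted limma p of 0.854. With the length and GC correction it was 0.08, and the standard error was 0.30. Igf2 was more abundant than Igf1 in every library, by 4.62 to 12.4 times in control and 8.01 to 14.1 times in cKO (two-sided exact permutation test between groups, p = 0.4). The ratio of Igf2 to Igf2r was 7.89, 5.18 and 4.00 in control and 15.6, 24.3 and 3.53 in cKO. It was higher in cKO replicates 1 and 2 than in any control library and lower in cKO replicate 3 (two-sided exact permutation test, p = 0.4).

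The coefficient of variation within a group was 60.0% in control and 49.2% in cKO for Igf1 and 49.8% and 73.3% for Igf2, against 14.6% and 26.2% for Igf2r and 34.3% and 13.4% for Igf1r. Genes with the most similar pattern were sought by Pearson correlation of log2(TPM + 1) over the 6 libraries, without the length and GC correction. The search covered the 7367 tested genes whose mean reached 10 TPM. The similar genes are given as a description, since they are the highest of many correlations over few libraries. For Igf2 the first was H19, the imprinted noncoding RNA that neighbours it (r = 0.989, Spearman's rho 1.00, and r = 0.961 without the 2 libraries farthest from the median of Igf2). H19 was 228, 138 and 101 TPM in control against 153, 319.59 and 77.1 TPM in cKO, so that Igf2 and H19 put the 6 libraries in the same order. The ratio of Igf2 to H19 was 0.501, 0.451 and 0.434 in control and 0.587, 0.571 and 0.446 in cKO. The next were Mmp9, a matrix metalloproteinase made by osteoclasts and other cells (r = 0.983), and Ctsk, the collagen-degrading cysteine protease of osteoclasts (r = 0.980), both with rho 1.00 and with r of 0.954 and 0.970 without those 2 libraries. Ctsk was 41.5, 18.0 and 7.34 TPM in control against 21.9, 55.0 and 6.27 TPM in cKO.

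For Igf1 the most similar genes were Tmem184c (r = 0.997), Phex, an endopeptidase gene of mineralizing cells (r = 0.992), and Pgrmc1, a membrane-associated progesterone receptor component (r = 0.991), with rho of 1.00, 1.00 and 0.943. Phex was 55.2, 44.0 and 15.3 TPM in control against 41.2, 43.4 and 20.4 TPM in cKO, with replicate 3 low in both groups as for Igf1. Without the 2 libraries farthest from the median of Igf1, the values of r were 0.917, 0.934 and 0.831. For Igf2r the most similar genes were Lamb1, a laminin chain gene (r = 0.997), Smarca4, a chromatin remodelling ATPase gene (r = 0.996), and Gga2, an adaptor of the trans-Golgi network (r = 0.996). For Igf1r they were Nrde2, Gapvd1 and Ankfy1 (r = 0.999, 0.997 and 0.996). For these 6 genes rho was 1.00, and r was at least 0.957 without the 2 farthest libraries. Gapvd1 encodes a regulator of endocytic traffic. Gga2 was 155, 142 and 138 TPM in control against 93.2, 108.50 and 128 TPM in cKO, without overlap between the groups, as for Igf2r.

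**Figure D4:**
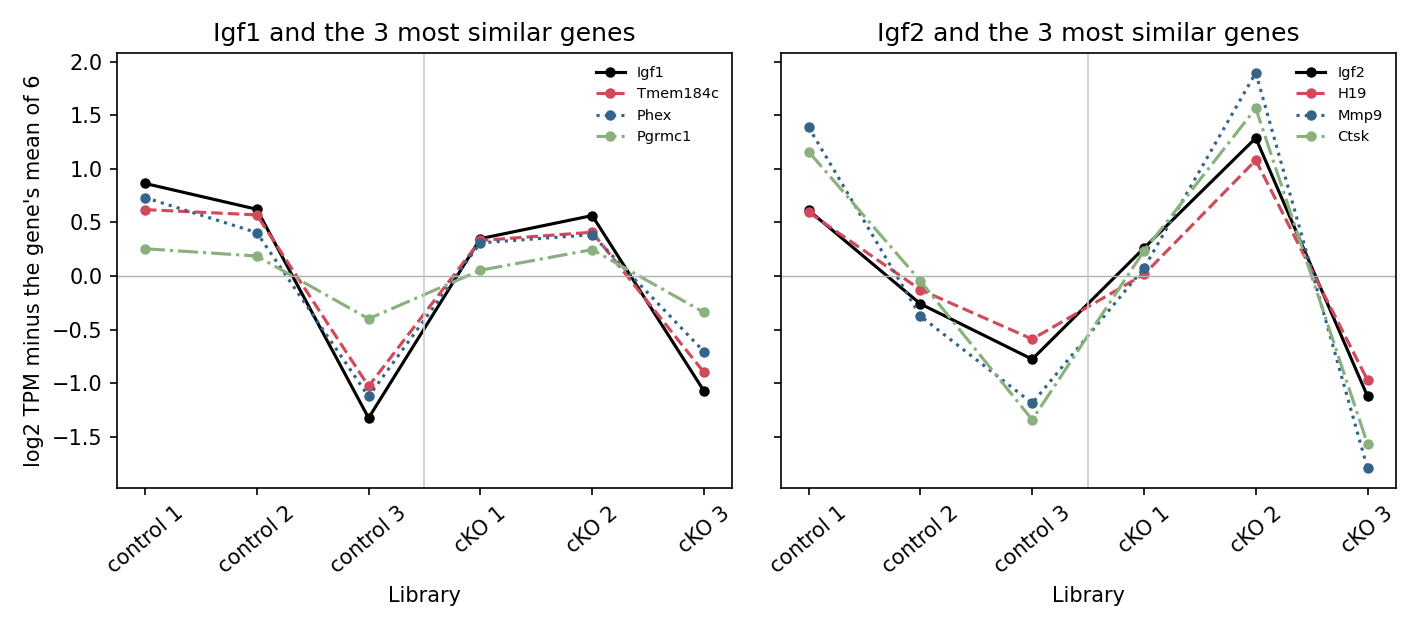
Log2 TPM minus the gene's mean over the 6 libraries for Igf1 (left) and Igf2 (right), each with the 3 genes of highest correlation; lines join the libraries to guide the eye and stand for no order. Igf1 is low in replicate 3 of both groups, and Igf2 and H19 are highest in cKO replicate 2 and lowest in cKO replicate 3.

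Among the binding proteins, Igfbp2, which binds IGF2 with preference, was 470.15, 333 and 568 TPM in control, replicates 1 to 3, against 341, 228 and 474 TPM in cKO. The groups overlapped, since cKO replicates 1 and 3 lay above control replicate 2. The log2 fold change was -0.42 (standard error 0.31, 95% interval -1.14 to 0.30), with an unadjusted limma p of 0.209. It was -0.15 without cKO replicate 2 and -0.68 without cKO replicate 3, with unadjusted limma p of 0.609 and 0.0580. With the length and GC correction it was -0.47 with an unadjusted limma p of 0.168.

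Igfbp5, which binds to extracellular matrix as well as to the ligands, was 382, 238 and 214 TPM in control against 169.67, 217.50 and 211 TPM in cKO. The groups overlapped by 1 library, since cKO replicate 2 lay just above control replicate 3. The log2 fold change was -0.44 (standard error 0.24, 95% interval -1.01 to 0.13), with an unadjusted limma p of 0.110. Without control replicate 3 it was -0.60 with an unadjusted limma p of 0.0489, and without control replicate 1, the library with the highest level, -0.19 with an unadjusted limma p of 0.356. With the length and GC correction it was -0.19, with an unadjusted limma p of 0.403.

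Igfbp3, the main carrier of IGFs in serum, was 93.6, 47.0 and 64.5 TPM in control against 59.6, 84.1 and 44.0 TPM in cKO, with a log2 fold change of -0.12 (standard error 0.32). Igfbp4, a binding protein that is mostly inhibitory, was 107, 59.5 and 94.0 TPM in control against 70.5, 95.9 and 81.2 TPM in cKO, with a log2 fold change of -0.04 (standard error 0.25). Both genes had a control library above and a control library below most cKO libraries, and unadjusted p of 0.717 and 0.871 from limma. Igfbp7, a distant relative with low affinity for IGFs, was 85.5, 42.1 and 70.4 TPM in control against 68.9, 61.6 and 68.1 TPM in cKO, with a log2 fold change of 0.06 (standard error 0.26). Its cKO libraries were closer together than its control libraries, and the cKO values lay within the control range. Igfbp6, which prefers IGF2, was 1.01, 1.46 and 1.83 TPM in control against 1.62, 1.04 and 1.28 TPM in cKO, with a log2 fold change of -0.07 (standard error 0.27), and was close to the filter in every library. The 95% interval of the log2 fold change from limma was -0.86 to 0.63 for Igfbp3 and -0.62 to 0.54 for Igfbp4. It was -0.55 to 0.67 for Igfbp7 and -0.69 to 0.56 for Igfbp6. Each of these 4 intervals held negative and positive values, so the direction of the difference between the groups was not settled. Igfbp7 shares 85 exon bases with Polr2b, a gene on the opposite strand at 14.3 to 34.3 TPM.

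Igfbp2 and Igfbp5 together made up 74.8%, 79.2% and 77.2% of the summed IGFBP TPM in control and 71.8%, 64.7% and 77.9% in cKO. Igfbp2 alone was 41.3% to 56.1% in control and 33.1% to 53.9% in cKO, and Igfbp6 was at most 0.228% in any library. The share of Igfbp7 was 7.51%, 5.84% and 6.94% in control and 9.69%, 8.96% and 7.74% in cKO, without overlap between the groups, a difference that was singled out after the values were seen. The summed IGFBP level was 1139, 721 and 1014 TPM in control against 711, 688 and 879 TPM in cKO (log2 difference -0.32, two-sided exact permutation test, p = 0.2). The difference was -0.18 without control replicate 1 and -0.51 without control replicate 2. The summed ligand level was between 47.2 and 130.38 TPM in control and between 38.5 and 195.50 TPM in cKO (log2 difference 0.23, two-sided exact permutation test, p = 0.8). Transcripts of binding proteins exceeded those of ligands in every library, 8.74, 9.49 and 21.5 times in control and 7.06, 3.52 and 22.8 times in cKO (log2 difference -0.55, two-sided exact permutation test, p = 0.5). The lowest ratio was in cKO replicate 2 and the highest in cKO replicate 3, so the difference between groups was smaller than the spread within cKO. Without cKO replicate 2, the log2 difference of the ratio was 0.07 and that of the ligands -0.32.

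**Figure D5:**
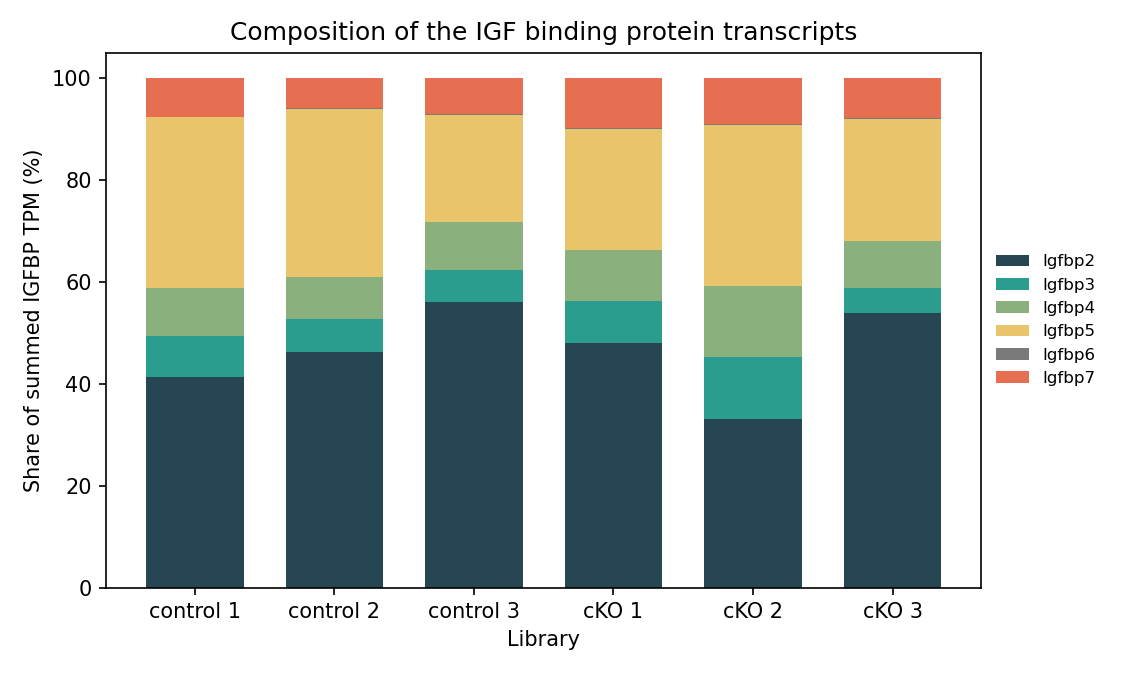
Share of each gene in the summed TPM of the 6 IGFBP genes, in percent, for each library. Igfbp2 and Igfbp5 make up between 64.7% and 79.2% of each bar, and the share of Igfbp2 is smallest in cKO replicate 2.

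Genes that act with the axis were taken from 4 lists with 70 genes in all, of which 59 were tested. At an adjusted p below 0.05 from limma, 0 of the 59 were called, and at an unadjusted p below 0.05 1 was lower and 1 higher, against 2.47% and 1.55% of the tested genes. Of the 38 tested genes of signal transduction downstream of the receptors, 32 had a negative log2 fold change, against 60.3% of all tested genes. The median of the 38 was -0.21, against -0.07 over all tested genes. With the length and GC correction the median of the 38 was -0.06. The lower gene was Rptor, the raptor subunit of mTORC1, at 10.6, 15.4 and 12.0 TPM in control against 6.05, 7.43 and 9.99 TPM in cKO (log2 fold change -0.64, standard error 0.24, unadjusted p of 0.0325 from limma). The higher gene was Eif4ebp1, a repressor of translation that mTORC1 inactivates, at 11.1, 8.65 and 14.8 TPM in control against 17.3, 16.5 and 16.0 TPM in cKO (log2 fold change 0.52, standard error 0.22, unadjusted p of 0.0470 from limma). Neither gene had overlapping groups. With the length and GC correction their unadjusted p from limma were 0.105 and 0.0967, and 3 other genes of the 59 were below 0.05, against 4.57% of the genes corrected. Lrp1 and Pik3ca were higher and Ghr, the growth hormone receptor gene, was lower, with log2 fold changes of 0.46, 0.42 and -0.43. Without the correction these were 0.02, 0.18 and -0.50, with unadjusted limma p of 0.928, 0.664 and 0.144. Pik3ca and Ghr were named after their values were seen.

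The groups were also separate for Pik3r2, a regulatory subunit of phosphatidylinositol 3-kinase, and for Stc1, a stanniocalcin, both lower in cKO and both named after their values were seen. Of the 59 genes, 4 therefore had groups that did not overlap, against 9.64% of the tested genes. When a library was left out, the count of the 59 genes at an unadjusted p below 0.05 from limma was highest where the share over all tested genes was highest. It was 6 without control replicate 3 and 4 without cKO replicate 3, where the share was 8.45% and 6.93%. It was 1 without control replicate 1 (1.73%) and 0 without control replicate 2 (2.69%), cKO replicate 1 (1.49%) or cKO replicate 2 (2.06%). Hras, a small GTPase, and Nedd4, a ubiquitin ligase of the IGF1R pathway, were the most abundant genes of signal transduction, at 288 ± 43.9 and 208 ± 53.8 TPM in control (SD, n = 3) and 333 ± 42.2 and 169 ± 27.6 TPM in cKO (SD, n = 3).

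Of the other lists, 5 of 8 IGFBP proteases and their inhibitors were tested. All 5 had a negative log2 fold change, against 60.3% of all tested genes, and 0 passed the unadjusted threshold, against 4.02%. The most abundant were Ctsd, a lysosomal aspartic protease, at 329 ± 24.6 TPM in control and 298 ± 51.8 TPM in cKO (SD, n = 3), and Htra1, a secreted serine protease, at 60.7 ± 17.5 and 58.2 ± 31.3 TPM (SD, n = 3). Pappa, the metalloproteinase that cleaves IGFBP4, was at most 0.05 TPM in any library. Of the 10 related ligands, receptors and carriers, 4 were tested and 0 passed. Lrp1, an endocytic receptor, was 126 ± 12.4 and 129 ± 26.0 TPM (SD, n = 3), and Igfbpl1, an IGFBP-like gene, was 32.8 ± 7.45 and 40.6 ± 18.3 TPM (SD, n = 3). Igfbp1, the remaining classical binding protein gene, was listed at 0 in 5 libraries and at 0.06 TPM in cKO replicate 1, and the insulin genes Ins1 and Ins2 were listed at 0 in every library. Of the 13 IGF2 mRNA binding proteins and imprinted genes, 12 were tested and 0 passed. The log2 fold change was negative for 5 and positive for 7 of these genes, against 60.3% negative over all tested genes. H19, described above, and Cdkn1c, an imprinted cell cycle inhibitor at 60.2 ± 8.26 and 65.3 ± 5.53 TPM (SD, n = 3), were the most abundant of them.

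Marker genes of other cells were read beside these values. The 12 mesenchyme markers, of which 0 passed the unadjusted threshold, summed to 3086 to 5689 TPM in control and 3945 to 4292 TPM in cKO, most of it Col1a1, and none was listed at 0 in every library. The 8 endothelial markers summed to 134 to 172 TPM in control and 111 to 136 TPM in cKO, with 2 of 8 lower at an unadjusted p below 0.05 (against 2.47% of the tested genes), Cdh5 and Tek, which were named after their values were seen. The median log2 fold change of the 8 was -0.48, against -0.07 over all tested genes. With the length and GC correction, the unadjusted limma p was 0.0624 for Cdh5 and 0.0617 for Tek. The highest of the 8 was Egfl7, at 45.4 to 57.7 TPM over the 6 libraries. The 9 macrophage and leukocyte markers summed to 71.0 to 94.3 TPM in control and 69.0 to 73.8 TPM in cKO, and the highest was Lyz2, at 28.3 to 39.1 TPM. The 8 skeletal muscle markers summed to at most 7.39 TPM, most of it Mylpf, and Actc1 was listed at 0 in every library. Of the 12 dental epithelium markers, 1, the desmosome gene Dsp, was lower at this threshold. With the length and GC correction its unadjusted limma p was 0.185. The median log2 fold change of the 12 was -0.28, against -0.07 over all tested genes. Groups did not overlap for Dsp and for Ambn (31405 to 33061 TPM in control, 8562 to 26263 TPM in cKO), against 9.64% of the tested genes. Dsp and Ambn were named after their values were seen. The sum of the 12, most of it Amelx, was 205697 to 246767 TPM in control and 101892 to 215654 TPM in cKO. The part of any of these cell types in the levels of the IGF axis genes was not tested.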

How the data were processed

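Reads were trimmed by the authors (SeqPrep, Sickle) and aligned by HISAT2, and abundance per gene was estimated by RSEM. The submitters' processing notes name HISAT2 and StringTie. The authors deposited 1 TPM value for each gene and library. The methods name FPKM, but the column sums run from 983952 to 993946, near the fixed total of TPM. The genome build is not given in the sources used here; lengths, GC content and positions came from GENCODE for GRCm38, which holds 99.5% of the identifiers. Depth is unknown, so precision is set by the number of libraries.

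Groups and replicate numbers came from the sample titles. Genes whose mean reached 1 TPM entered the test on log2(TPM + 1) with limma (version 3.58.1, R 4.3.3), with a mean-variance trend and no block; p are Benjamini-Hochberg adjusted over all tested genes where so named. Sums and ratios were compared on the log2 scale by two-sided exact permutation (SciPy 1.17.1). For the length and GC correction, natural splines (4 degrees of freedom) of both properties were fitted in each library to the difference from the mean of the gene and subtracted. The fit was also run on simulated data with independent noise for each gene. Those data held no trend with transcript length or GC content, so they cannot show how the fit handles one. Named were all 10 members, the 2 most abundant tested genes of each pathway list with those at an unadjusted p below 0.05, the highest gene and the sum of each marker list, and the 3 genes most similar to each ligand and receptor; others are said to be chosen after their values were seen, as were Pappa, Igfbp1, Ins1, Ins2, Krt14, Actc1 and the promoter search. Airn was named for its overlap with Igf2r. The members and lists were chosen with earlier results of these data known. Promoter sequences are from RefSeq (GRCm38.p6).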

Additional observations from a re-analysis of the deposited data

How the results depend on the processing

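Each comparison was repeated under 15 alternatives. No member had an adjusted p below 0.05 from limma in any of them, the lowest being 0.507. Igf1r, Igf2r, Igfbp2 and Igfbp5 were lower in cKO in all 15, with an unadjusted p below 0.05 in 5, 8, 2 and 2 of them. The alternatives reuse the same libraries and are not independent of each other. Leaving out the filter or the mean-variance trend, or adding a block for the replicate number, cannot change a log2 fold change, so no direction could turn there. The count of members at an unadjusted p below 0.05, 1 as reported, was 2 with quantile normalization, median-ratio scaling or rescaling (to the sum of protein-coding genes, leaving out Amelx and Ambn), 0 with the length and GC correction, and 0 to 3 when a library was left out. The count over the 4 pathway lists, 2 as reported, was 1 with quantile normalization or median-ratio scaling and 0 to 6 when a library was left out. The share of all tested genes at an unadjusted p below 0.05 was 4.02% as reported. It was 4.74% with quantile normalization, 4.48% with median-ratio scaling, 5.98% with rescaling and 4.57% with the length and GC correction. When a library was left out, this share ran from 1.49% to 8.45%. The count over all genes at an adjusted p below 0.05, 2 as reported, was 4 with a pseudocount of 0.1, quantile normalization or median-ratio scaling, 1 without the filter, 0 with rescaling (where 755 genes had an unadjusted p below 0.05), and 2 to 9 when a library was left out. Over all genes, 552 had an unadjusted p below 0.05 as reported, 946 without the filter and 204 to 1159 when a library was left out. The cause was not tested. The median log2 fold change of all genes was -0.12 with rescaling and -0.07 as reported.

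Across genes, libraries with the same replicate number deviated from their groups with correlations of -0.08, 0.29 and 0.40, so the numbers were not taken to pair the libraries. With the replicate number as a block, 3 members (Igf1r, Igf2r and Igfbp2), 6 pathway genes and 1316 genes in all had an unadjusted p below 0.05, and 4 genes an adjusted p below 0.05. With the block and the length and GC correction, 1 member (Igfbp2), 7 pathway genes and 1146 genes in all had an unadjusted p below 0.05, and 1 gene an adjusted p below 0.05.

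Directions turned in at least 1 alternative for Igf1, Igf2, Igfbp3, Igfbp4, Igfbp6 and Igfbp7. The length and GC correction, with or without the block, gave log2 fold changes of 0.082 for Igf1 and 0.13 for Igfbp4, and median-ratio scaling gave 0.034 for Igfbp4. When a library was left out, the log2 fold change ranged from -0.71 to 0.33 for Igf1, from -0.28 to 0.90 for Igf2, from -0.36 to 0.13 for Igfbp3, from -0.29 to 0.13 for Igfbp4, from -0.20 to 0.049 for Igfbp6 and from -0.23 to 0.27 for Igfbp7. It ranged from -0.78 to -0.30 for Igf1r, from -0.82 to -0.49 for Igf2r, from -0.68 to -0.15 for Igfbp2 and from -0.60 to -0.19 for Igfbp5, with no change of direction. The log2 difference ranged from -0.51 to -0.18 for the summed binding proteins, from -0.32 to 0.85 for the summed ligands and from -1.28 to 0.066 for the ratio of binding proteins to ligands. Without depths, counting error could not be separated from the spread between libraries, which bears most on Igfbp6.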
